A study of Mus musculus with 10 samples.

Results

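The Ras, Raf, MEK and ERK genes described here are 7 of the 20206 genes in the table, namely Hras, Nras, Araf, Braf, Map2k1, Map2k2 and Mapk3. They were chosen by name as core members of the cascade, with the gene identifier of each matched to its symbol, and each symbol had 1 row. Other isoforms of the cascade were not analysed here. RNA was sequenced from 10 wild-type C57BL/6 mouse embryonic stem cell (ESC) lines, labelled male, each derived from a blastocyst of a different mother. For 5 lines the mother was fed a low protein diet (LPD, 9% casein) and for 5 a normal protein diet (NPD, 18% casein), in both cases until embryonic day 3.5, at an age of 7 to 9 weeks. The LPD lines are numbered 1, 4, 6, 20 and 40 and the NPD lines 8, 15, 21, 36 and 51. All lines were grown without feeder fibroblasts before RNA was taken, and the diets were given to the mothers and not to the cells in culture.

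Ras proteins are small GTPases at the inner face of the plasma membrane that are switched on by exchange of GDP for GTP below activated growth factor receptors. Active Ras recruits Raf kinases, Raf phosphorylates the MEK kinases, and MEK phosphorylates ERK, which then acts on cytoplasmic kinases and on transcription factors in the nucleus. In mouse ESCs, Fgf4 signalling through this cascade prompts exit from naive pluripotency, and inhibition of MEK is used to hold the cells in the naive state. The proteins of the cascade are controlled mainly by nucleotide exchange and phosphorylation, neither of which is measured by RNA sequencing.

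The deposited value is a normalised signal per gene, here called the normalised value. The depth of a line, as its total divided by the value that 1 read was worth, was 5821937 read equivalents in LPD line 4, 11240656 in LPD line 40, 12337960 in LPD line 6 and 20435570 to 24076540 in the other lines. The 7 genes were well covered, with 353 to 3815 read equivalents per gene and line, which puts counting error alone at 1.62% to 5.32% of a value. All 7 ESC markers examined, Nanog, Pou5f1 and Sox2 among them, were expressed in every line, with Pou5f1 between 18250 and 30420. Zfp42 was the lowest of them, between 1391 and 1851, below the highest values of some fibroblast and trophectoderm markers. The sum of 7 fibroblast markers ranged from 291 to 3175 in LPD lines and from 372 to 5390 in NPD lines. Of these markers, Lum and Dcn were at 0 in at least 1 line of each diet, and Postn in at least 1 LPD line. Col1a1, Col1a2, Col3a1 and Thy1 were above 0 in every line, with Col1a1 from 131 to 1704 in LPD and from 227 to 2709 in NPD. The sum of 5 primitive endoderm markers ranged from 516 to 3743 in LPD and from 288 to 4363 in NPD, and that of 5 trophectoderm markers from 1297 to 7927 and from 935 to 2309. Their part in the results was not tested. The Y-linked gene Ddx3y stood at 7.70 in NPD line 15 and 174 in LPD line 4, against 1110 to 1493 in the other 8 lines, which goes against the label male for NPD line 15. The fold changes below were therefore also computed without these lines. P-values measure the spread between lines, and fewer cells of a type cannot be told apart from less RNA per cell.

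No difference between the diets was detected in any of the 7 genes. At an unadjusted p under 0.05 (limma), 0 of 7 members were called, where 5.02% of the 14354 genes tested were. At an adjusted p under 0.1 it was 0 of 7 members and 0% of all genes. The diets overlapped in all 7 members, and in all but 1.02% of the genes tested. The mean log2 value of 3 members was slightly higher in LPD and that of 4 lower, with a median log2 fold change (LPD minus NPD) of -0.03, against 0.0020 over all genes tested. The 95% confidence intervals of all 7 fold changes lay within 1.5-fold in either direction in this fit.

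**Figure D1:**
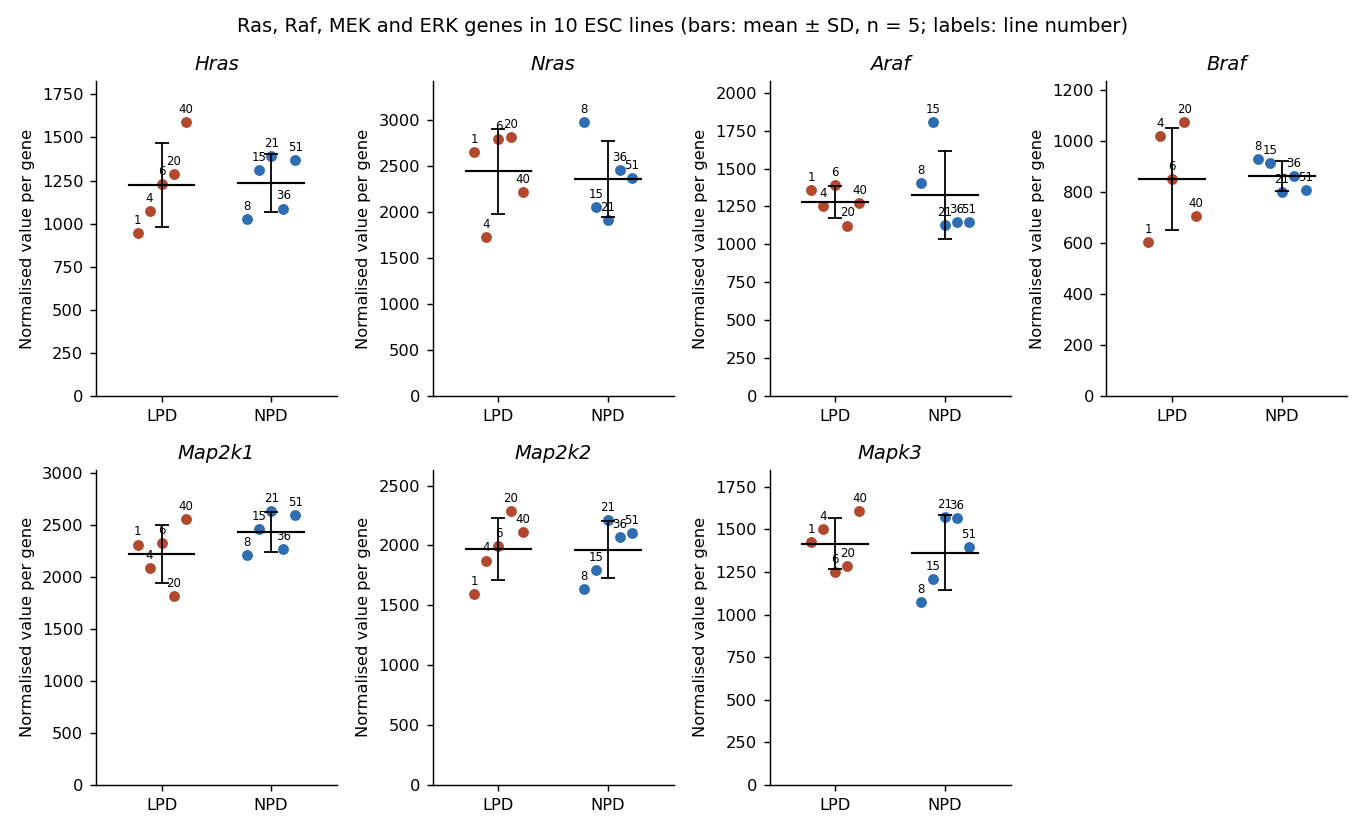
Normalised value of each of the 7 genes (y axis, from 0) in the LPD and NPD lines (x axis), with 1 point per line, its line number, and the mean ± SD of 5 lines as black bars. Each panel shows the 2 diets over a shared range of values, with lines of the same diet farther apart than the means of the diets.

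**Figure D2:**
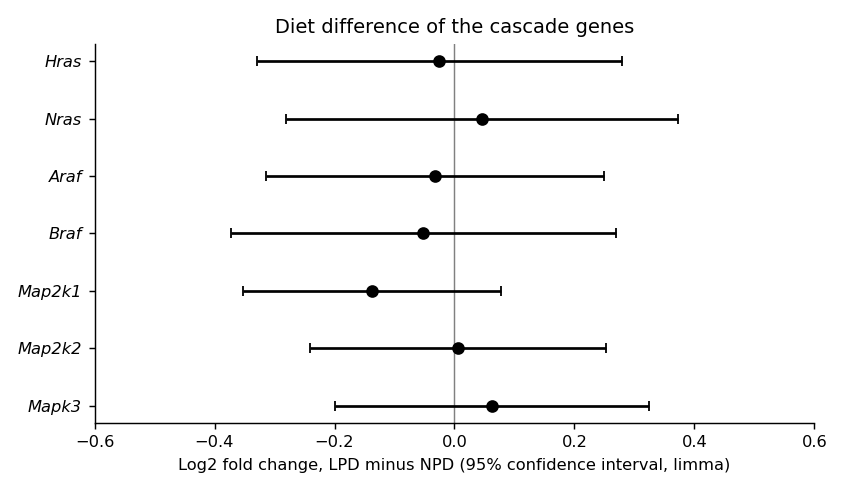
Log2 fold change of LPD minus NPD (x axis) for each member (y axis), with 95% confidence intervals from limma. Every interval crosses 0, and the estimate farthest from 0 is that of Map2k1 at -0.14.

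To show the promoters behind the 2 pairs whose ratio varied most between lines, Hras with Nras and Araf with Braf, the 150 bases before the start site are printed here from RefSeq (GRCm38.p6). Promoter windows of 300 bases were found for 6 of the 7 members, and Mapk3 was not matched. Capitals mark the GC box GGGCGG, the NF-Y box, which reads CCAAT, the core of ETS sites, which reads CCGGAA, and the cAMP response element (CRE), which reads TGACGTCA, each searched on both strands within the printed stretch, with overlapping GC boxes counted separately.
Hras, chr7:141194005-141194154, minus strand: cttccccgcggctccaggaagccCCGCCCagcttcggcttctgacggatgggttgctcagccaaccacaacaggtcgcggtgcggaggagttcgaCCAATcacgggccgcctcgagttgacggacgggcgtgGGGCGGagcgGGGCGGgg
Nras, chr3:103058135-103058284, plus strand: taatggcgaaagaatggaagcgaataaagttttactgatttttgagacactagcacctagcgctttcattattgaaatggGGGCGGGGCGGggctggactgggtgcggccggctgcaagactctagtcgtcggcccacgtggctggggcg
Araf, chrX:20848393-20848542, plus strand: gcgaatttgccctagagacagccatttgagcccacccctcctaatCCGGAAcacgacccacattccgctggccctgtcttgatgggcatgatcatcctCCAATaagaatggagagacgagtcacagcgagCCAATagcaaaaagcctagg
Braf, chr6:39725464-39725613, minus strand: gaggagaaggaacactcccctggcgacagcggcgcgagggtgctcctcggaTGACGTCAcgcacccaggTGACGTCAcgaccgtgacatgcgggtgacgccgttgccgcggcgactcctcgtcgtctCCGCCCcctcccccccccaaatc
In the 300-base windows, 5 of the 6 members held a GC box, against 35.9% of the 27025 promoters in the table, and 0 of 6 held a TATA box (TATAAA), against 14.2%. An NF-Y box was found in 3 of 6 members against 37.9%, and an ETS core in 3 of 6 against 15.2%. An E-box (CACGTG) was found in Nras alone, 1 of 6, against 7.24%. The Braf promoter held 2 CRE motifs, a sequence present in 1.88% of promoters, and was the one member with any. Araf was the member without a GC box, and held 3 NF-Y boxes. The windows held 14 (Araf) to 34 (Hras) CpG dinucleotides, against a median of 7 over all promoters. These counts describe the letters in the windows, and no binding was measured.

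Hras and Nras encode Ras GTPases that differ mainly in the C-terminal stretch that carries lipid anchors. Hras (ENSMUSG00000025499, chromosome 7, 141189105 to 141194005, minus strand) had normalised values of 947, 1074, 1231, 1289 and 1589 in LPD lines 1, 4, 6, 20 and 40. In NPD lines 8, 15, 21, 36 and 51 it had 1027, 1314, 1392, 1088 and 1369. Both the lowest and the highest Hras value belonged to LPD lines, and the NPD lines fell between them. The means were 1226 ± 243 (SD, n = 5) in LPD and 1238 ± 169 in NPD. The log2 fold change was -0.03 (SE 0.14, 95% interval -0.33 to 0.28, exact permutation test, p = 0.865).

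Nras (ENSMUSG00000027852, chromosome 3, 103058285 to 103067914, plus strand) had values of 2653, 1731, 2791, 2814 and 2216 in LPD lines 1, 4, 6, 20 and 40. The NPD lines 8, 15, 21, 36 and 51 had 2977, 2055, 1914, 2454 and 2370. The highest value was in NPD line 8 and the lowest in LPD line 4, so that the extremes lay in opposite diets. The means were 2441 ± 464 (SD, n = 5) in LPD and 2354 ± 413 in NPD, a log2 fold change of 0.05 (SE 0.15, 95% interval -0.28 to 0.37, exact permutation test, p = 0.778). In NPD line 8, Nras exceeded the 10-line median by 0.30 (log2), and the median of 472 genes of chromosome 3 exceeded it by 0.18. In LPD line 4, Nras was 0.48 below, with the chromosome at -0.03. With each chromosome centred, the log2 fold change of Nras was 0.07 (SE 0.13). It was 0.26 with depth as a covariate and 0.23 without the shallow LPD lines 4, 6 and 40, and 0.16 without LPD line 4 alone, with an adjusted p of 0.956 or more in these fits (limma, Benjamini-Hochberg).

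Araf and Braf encode Raf kinases, of which Braf is the more readily activated. Araf (ENSMUSG00000001127, chromosome X, 20797814 to 20860519, plus strand) had values of 1355, 1253, 1391, 1125 and 1273 in LPD lines 1, 4, 6, 20 and 40. In NPD lines 8, 15, 21, 36 and 51 it had 1403, 1805, 1131, 1149 and 1150. NPD line 15 was the highest of all lines, and the remaining NPD lines overlapped the LPD lines. The means were 1279 ± 104 (SD, n = 5) in LPD and 1327 ± 290 in NPD, with a log2 fold change of -0.03 (SE 0.13, 95% interval -0.31 to 0.25, exact permutation test, p = 0.857). In NPD line 15, Araf exceeded the 10-line median by 0.51 (log2), and the median of 334 X-linked genes exceeded it by 0.49. The 9 other lines had X medians between -0.06 and 0.03. Without NPD line 15 the log2 fold change of Araf turned to 0.085. Centring each chromosome lowered the SD of Araf over the 10 lines from 0.21 to 0.13, and gave a log2 fold change of 0.05 (SE 0.09). Exons of Araf overlap 9 bases of Syn1 on the other strand.

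**Figure D3:**
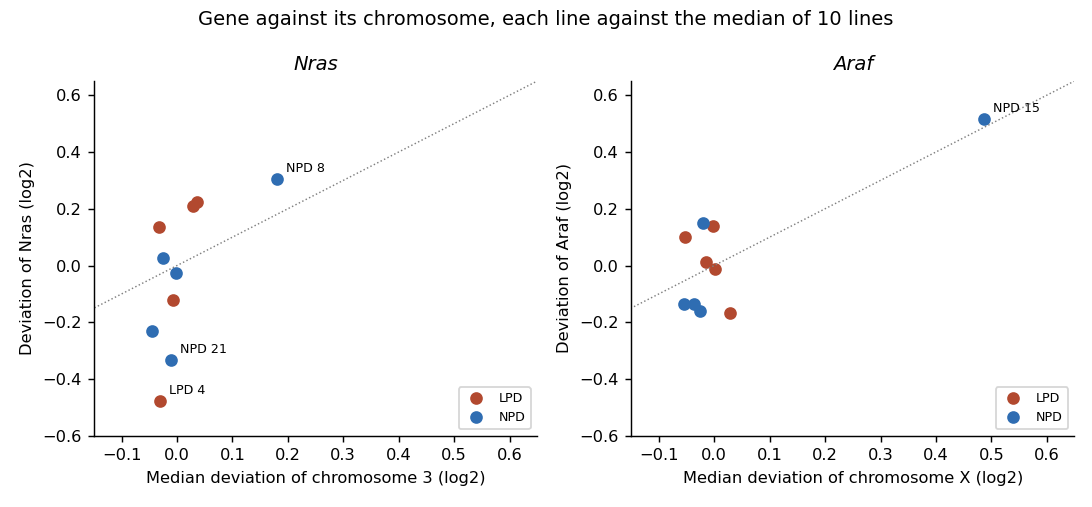
Log2 deviation of Nras and Araf from the median of the 10 lines (y axis) against the median deviation of the genes of the same chromosome (x axis), with 1 point per line coloured by diet and the dotted line marking equal values. NPD line 15 lies far to the right for Araf at 0.49, NPD line 8 for Nras at 0.18, and the low Nras value of LPD line 4 at -0.48 has a chromosome median near 0.

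Braf (ENSMUSG00000002413, chromosome 6, 39603237 to 39725463, minus strand) had values of 604, 1022, 853, 1076 and 709 in LPD lines 1, 4, 6, 20 and 40. The NPD lines 8, 15, 21, 36 and 51 had 932, 915, 802, 866 and 811. The LPD lines spread on both sides of the NPD lines, with LPD lines 1 and 40 below all of them and LPD lines 4 and 20 above all of them. The within-diet SD was 0.35 in LPD and 0.10 in NPD on the log2 scale, a difference between the diets that was not tested. The means were 853 ± 201 (SD, n = 5) in LPD and 865 ± 58.8 in NPD, with a log2 fold change of -0.05 (SE 0.15, 95% interval -0.37 to 0.27, exact permutation test, p = 0.770). Braf shares 146 exonic bases with Ndufb2 on the other strand, and the sharing of reads between them was not tested.

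Map2k1 and Map2k2 encode the MEK kinases, which have ERK as their main known substrate. Map2k1 (ENSMUSG00000004936, chromosome 9, 64185770 to 64253631, minus strand) had values of 2316, 2091, 2329, 1823 and 2563 in LPD lines 1, 4, 6, 20 and 40. The NPD lines 8, 15, 21, 36 and 51 had 2211, 2460, 2640, 2272 and 2602. LPD lines 4 and 20 lay below all NPD lines, and LPD line 40 lay above 3 of them. With means of 2224 ± 280 (SD, n = 5) in LPD and 2437 ± 192 in NPD, Map2k1 had the lowest p of the members, with a log2 fold change of -0.14 (SE 0.10, 95% interval -0.35 to 0.08, exact permutation test, p = 0.214). Its adjusted p was 0.994 (limma, Benjamini-Hochberg), and its direction held under every alternative tried, with log2 fold changes from -0.24 to -0.07.

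Map2k2 (ENSMUSG00000035027, chromosome 10, 81105915 to 81133975, plus strand) had values of 1597, 1874, 1993, 2288 and 2110 in LPD lines 1, 4, 6, 20 and 40. In NPD lines 8, 15, 21, 36 and 51 it had 1639, 1793, 2212, 2066 and 2101. The ranges of the diets were nearly the same. The means were 1972 ± 260 (SD, n = 5) in LPD and 1962 ± 238 in NPD, a log2 fold change of 0.0059 (SE 0.11, 95% interval -0.24 to 0.25, exact permutation test, p = 0.968).

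Mapk3 encodes ERK1, the kinase at the end of the cascade (ENSMUSG00000063065, chromosome 7, 126759601 to 126765819, plus strand). It had values of 1428, 1504, 1250, 1285 and 1609 in LPD lines 1, 4, 6, 20 and 40. In NPD lines 8, 15, 21, 36 and 51 it had 1075, 1208, 1571, 1565 and 1400. The lowest values were in NPD lines 8 and 15 and the highest in LPD line 40. The means were 1415 ± 150 (SD, n = 5) in LPD and 1364 ± 219 in NPD, with a log2 fold change of 0.06 (SE 0.12, 95% interval -0.20 to 0.32, exact permutation test, p = 0.635).

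For each of the 7 genes, the within-diet SD on the log2 scale was larger than the difference between the diets. The highest line exceeded the lowest by 1.43-fold for Map2k2 to 1.78-fold for Braf. The within-diet SD on the log2 scale ran from 0.15 for Map2k1 to 0.27 for Nras. Of the 7 members, 6 exceeded 0.18, the median of the 2856 genes whose mean lay in the range of the members. Over all genes tested the median was 0.27. Map2k2 was only slightly above 0.18, at 0.19. For Araf, the SD over the 10 lines was 0.21 before and 0.13 after each chromosome was centred.

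The ratio of paralogues within a line does not depend on how the line was scaled, and it was compared as a check on the balance of the isoforms. The Nras to Hras ratio of normalised values ranged from 1.38 in NPD line 21 to 2.90 in NPD line 8, with 2.80 in LPD line 1. The Braf to Araf ratio ranged from 0.446 in LPD line 1 to 0.957 in LPD line 20, and was 0.507 in NPD line 15. The Map2k2 to Map2k1 ratio ranged from 0.690 in LPD line 1 to 1.26 in LPD line 20, the one line in which Map2k2 had the larger value. The mean log2 ratio differed between the diets (LPD minus NPD) by 0.07 for Nras to Hras, -0.02 for Braf to Araf and 0.14 for Map2k2 to Map2k1. None of these passed the exact permutation test, with p = 0.802, 0.921 and 0.444 and an adjusted p of 0.921 for all 3 ratios. The sign of the first and the second of these ratios turned when single lines were left out.

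**Figure D4:**
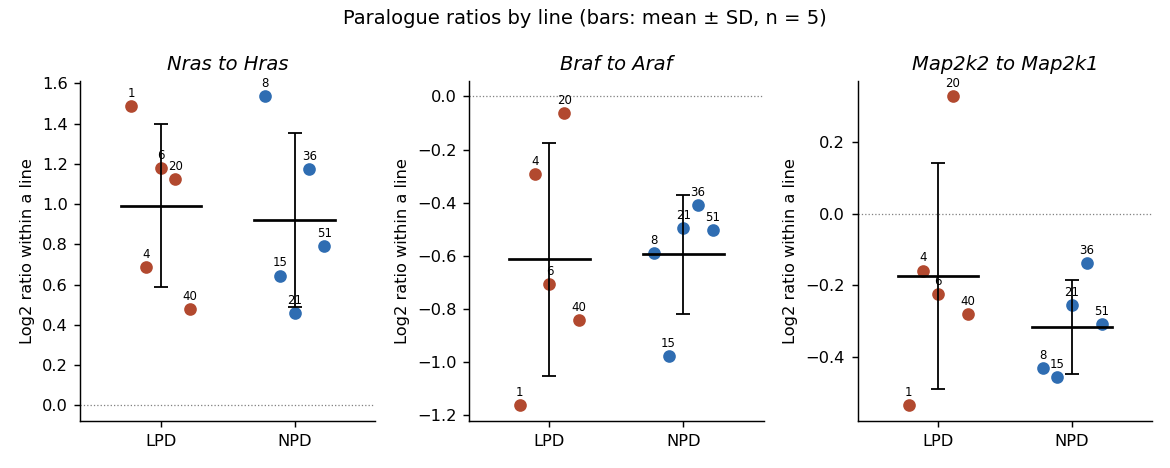
Log2 ratio of the normalised values of 2 paralogues within a line (y axis) in LPD and NPD lines (x axis), with line numbers and the mean ± SD of 5 lines. LPD lines 1 and 20 mark the lowest and highest Braf to Araf and Map2k2 to Map2k1 ratios, and the diets overlap in each panel.

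Levels of different genes were compared per kilobase of the longest protein-coding transcript, as means over the 10 lines. Map2k1 stood at 957 ± 104 normalised value per kb (SD), Map2k2 at 818 ± 97.6 and Mapk3 at 772 ± 99.5. Nras followed at 536 ± 93.2, Araf at 457 ± 72.5, Hras at 436 ± 69.8 and Braf at 88.3 ± 14.4. Braf was the lowest in all 10 lines, and its range did not overlap that of Hras, the next gene. The other neighbours in this order overlapped, with Map2k2 above Mapk3 in 6 of 10 lines and Araf above Hras in 6 of 10. The order depended on the length used, and with the mean length of the coding transcripts Nras came first at 1711 per kb. Braf remained last with either other length, though its longest coding transcript is 9728 bases long and the values hold no separate transcripts.

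The 7 genes were compared with each other over the 10 lines in 21 pairs. Pearson's r ranged from -0.65 to 0.72 with a median of -0.04, 9 pairs being positive and 12 negative. Hras and Map2k2 had the highest r of 0.72 (permutation p = 0.0204, Spearman's rho 0.75, permutation p = 0.0178), and 0.62 without LPD lines 1 and 40. Araf and Map2k2 had the lowest r of -0.65 (permutation p = 0.0373, rho -0.79, permutation p = 0.00861), and -0.74 without LPD line 20 and NPD line 15. Adjusted over the 21 pairs, both had a permutation p of 0.362, so no pair passed correction. The genes of a line share its scaling and depth.

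Other genes of the pathway were described by 7 lists, with 77 of 80 genes tested. The lists were chosen with earlier results of these data known, so their shares describe them and do not test them. At an unadjusted p under 0.05, 9 were higher and 1 lower in LPD, or 13.0% of the genes in all, against 2.84% higher, 2.18% lower and 5.02% in all among the genes tested, and 0 passed an adjusted p under 0.1. Of the 9, 6 belonged to the list of ERK-induced feedback genes. Without that list, 4 of 63 genes were called, or 6.35%.

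Upstream of Ras, 1 of 14 ligands, receptors and adaptors was called. Insr, the insulin receptor, had 259 ± 39.0 (SD, n = 5) in LPD and 331 ± 37.6 in NPD, with a log2 fold change of -0.36 (exact permutation test, p = 0.0317). Fgf4, the main ligand of the cascade in ESCs, had a log2 fold change of -0.25 (SE 0.15), and Gab1, an adaptor with the highest mean of the list, -0.11 (SE 0.19). Of 9 exchange factors and GTPase-activating proteins 0 were called, and Nf1 and Rasa1, which switch Ras off, had log2 fold changes of 0.19 (SE 0.14) and 0.13 (SE 0.10), and Rapgef1, an exchange factor for Rap, 0.10 (SE 0.13). Of 8 enzymes that process Ras 0 were called, with Fntb, a farnesyltransferase subunit, at -0.16 (SE 0.14), Pde6d, which carries farnesylated Ras, at -0.12 (SE 0.14) and Golga7, a partner in palmitoylation, at 0.03 (SE 0.08).

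Among 9 other Ras-like GTPases, Rras2 was called, with 1325 ± 158 (SD, n = 5) in LPD, 1079 ± 203 in NPD and a log2 fold change of 0.31 (exact permutation test, p = 0.0714). Rheb, which activates mTORC1, had 0.18 (SE 0.09) and Rap1b 0.13 (SE 0.07). Of 10 scaffolds and inhibitors 0 were called, with the scaffold Ksr1 at -0.33 (SE 0.19), Erbin at 0.28 (SE 0.18) and Pebp1, which binds Raf, at 0.07 (SE 0.11).

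Downstream of ERK, 2 of 13 substrate kinases and transcription factors were called. Srf, the transcription factor of serum response elements, had 2121, 2314, 2107, 2347 and 1136 in LPD lines 1, 4, 6, 20 and 40. The NPD lines 8, 15, 21, 36 and 51 had 689, 933, 1118, 976 and 1276, so that LPD line 40 fell within the NPD range and the other LPD lines above it. The log2 fold change of Srf was 0.99 (SE 0.21, exact permutation test, p = 0.0159), with an adjusted p of 0.341 (limma, Benjamini-Hochberg). Rps6ka3, a ribosomal S6 kinase, had 0.46 (SE 0.19, exact permutation test, p = 0.0556), and Rps6ka1, the one with the highest mean, -0.11 (SE 0.08).

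Of the 14 ERK-induced feedback genes 12 had a higher mean in LPD, which is 85.7%, against 50.5% of all genes tested, and the median log2 fold change was 0.27. Without LPD line 20 it was 8 of 14, with a median of 0.18. At an unadjusted p under 0.05, 6 genes were called, all higher in LPD, against 2.84% of all genes in that direction. This list was chosen with earlier results of these data known, so its excess over all genes is not an independent result. Dusp4, Dusp5 and Dusp6, phosphatases that remove phosphate from ERK, had log2 fold changes of 0.72, 1.42 and 0.79. Spry2 and Spry4, inhibitors of receptor signalling to Ras, had 0.32 and 0.82, and Phlda1 had 1.48. By the exact permutation test 4 of these 6 genes had p under 0.05, with p = 0.00794 for Dusp4, 0.0317 for Dusp5 and for Spry4, and 0.0238 for Phlda1, while Dusp6 (p = 0.0714) and Spry2 (p = 0.0556) did not. LPD line 40 lay within the range of the NPD lines in 5 of the 6, all but Dusp4, with 446 for Dusp5, where the NPD lines ran from 347 to 599. LPD line 1 also lay within the NPD range for Dusp6 and Spry4, and LPD line 6 for Spry2. The largest value among the called genes, Phlda1, came with 1762 ± 769 (SD, n = 5) in LPD and 596 ± 215 in NPD, and LPD line 40 stood at 655. For Dusp4 the diets did not overlap, though the lowest LPD and the highest NPD line both rounded to 761. Its permutation p is the smallest possible for 5 against 5 lines and follows from that separation. LPD line 20 stood at 1868 for Dusp4, and the other LPD lines at 901 or less.

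Etv5, the feedback gene with the highest mean, had a log2 fold change of 0.02 (SE 0.09). Adjusted p of the 6 called feedback genes ran from 0.435 to 0.899 (limma, Benjamini-Hochberg), so that none passed correction over all genes. The 3 shallow lines are all LPD lines. With depth as a covariate 6 of the 14 were called, and without LPD lines 4, 6 and 40 it was 7. Without LPD line 4 and NPD line 15, 4 of the 14 were called. Phlda1 is a gene the study itself picked from these lines. Induction of the feedback genes by ERK was not tested in these data. By immunoblotting, the paper reported lower ERK phosphorylation in LPD than in NPD lines, with similar total ERK protein. Those blots covered more lines than were sequenced, several culture times and both ERK kinases, of which only Mapk3 is among the members.

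**Figure D5:**
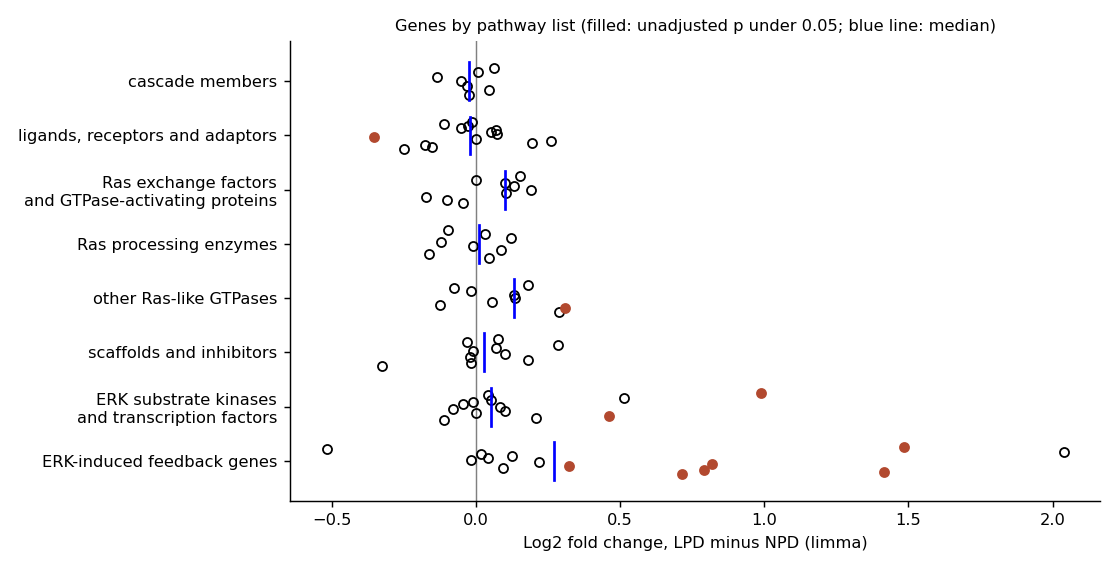
Log2 fold change of LPD minus NPD (x axis) of each gene of the cascade and of the 7 pathway lists (y axis), with 1 circle per gene, filled where the unadjusted p was under 0.05, and the median of each list as a blue line. The members lie between -0.14 and 0.06, and 6 of the 10 filled circles belong to the feedback genes, in which Egr1 is the open circle at 2.04. Egr1 had normalised values of 16051, 15176, 548, 831 and 170 in LPD lines 1, 4, 6, 20 and 40. In the NPD lines it ran from 118 to 2188.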

How the data were processed

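RNA sequencing of 10 mouse ESC lines was analysed, 5 per diet, with each line as 1 replicate. The authors trimmed adaptors with cutadapt, quantified transcripts with Salmon on GRCm38 transcripts and tested them with sleuth 0.30.0 on TPM values. They deposited 1 normalised signal per gene and line for 20206 genes. By the name of the table these values were normalised with DESeq2, and they are not whole reads. Only 68.5% to 74.9% of low values were whole multiples of 1 read (tolerance 0.15), and no count model was run.

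Rows were matched to GENCODE M21 by gene identifier. limma 3.58.1 (R 4.3.3) was fitted to log2(value + 1) of the 14354 genes that averaged 10 or more, with eBayes, a mean-variance trend, diet as the one term and Benjamini-Hochberg adjustment. Single genes and ratios were also tested by exact permutation over 252 assignments of lines. Correlations used 100000 permutations. The members and gene lists were chosen with earlier results of these data known. The genes named were the 7 members, in each pathway list every gene with an unadjusted p under 0.05, up to 2 genes with the smallest p and the gene with the highest mean, and for each member the gene whose pattern was most like it. Egr1 was named after its values were seen. The fit was tested on simulated data. Alternatives were other pseudocounts (0.1 and 10), filters, scalings and eBayes settings, depth as a covariate, chromosome-centred values and leaving lines out. The other steps were run in Python 3.11.15 (scipy 1.17.1, pandas 2.3.3, numpy 2.4.6) and plots were drawn in matplotlib 3.10.9.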

Additional observations from a re-analysis of the deposited data

How the results depend on the processing

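No alternative brought a member under an unadjusted p of 0.05 or separated the diets in a member where that was recounted, and the lowest adjusted p of a member was 0.826 (limma, Benjamini-Hochberg). Of 161 recomputed log2 fold changes of members, 133 kept their sign and 28 turned it, to values between -0.063 and 0.091. Map2k2 turned to -0.028 with lines rescaled to the same total, -0.026 with quantile normalization, -0.063 with array weights, -0.0068 with chromosomes centred and -0.029 without LPD lines 4, 6 and 40. Araf turned to 0.039 with array weights and 0.046 with chromosomes centred. Without LPD line 4 and NPD line 15, the values were 0.041 for Hras, 0.091 for Araf, -0.0086 for Map2k2 and -0.00069 for Mapk3. The largest shift of a member was that of Nras, from 0.046 to 0.26 with depth as a covariate and 0.23 without LPD lines 4, 6 and 40, and the cause was not tested.

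When 1 line at a time was removed, the log2 fold changes ranged from -0.12 to 0.062 for Hras, from -0.024 to 0.16 for Nras, from -0.084 to 0.085 for Araf, from -0.14 to 0.064 for Braf, from -0.057 to 0.079 for Map2k2 and from -0.019 to 0.12 for Mapk3. The diet difference in log2 ratio ranged from -0.052 to 0.22 for Nras to Hras and from -0.16 to 0.12 for Braf to Araf. The number of all genes under an adjusted p of 0.1 was 0 in the fit reported, 1 with array weights, 6 without LPD lines 4, 6 and 40, and 0 to 40 with single lines left out, the highest without LPD line 40, and the cause was not tested. Pathway genes with an unadjusted p under 0.05 numbered 7 to 12 over the alternatives. Counting error was at most 5.32% of a member's value, and the 3 shallow lines all belong to LPD.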

Other observations

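For each member, the other gene whose pattern over the 10 lines was most like it was sought among 10331 genes with a mean of at least 100, by Pearson's r on log2(value + 1). The nearest genes were Rbm3 for Hras (r = 0.97), Slc35a1 for Nras (r = 0.93), Pls3 for Araf (r = 0.96), Kmt2b for Braf (r = 0.95), Gm4631 for Map2k1 (r = 0.94), Ipo4 for Map2k2 (r = 0.95) and Rnf130 for Mapk3 (r = 0.96). These are the highest of many values over 10 lines. Pls3, like Araf, is X-linked, but so is Rbm3, while Hras lies on chromosome 7. None of these nearest genes is another member.

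After the values of the feedback genes were seen, each member was also compared with the mean log2 value of the 14 feedback genes over the 10 lines. That mean was between 9.99 and 10.92 in LPD lines and between 9.67 and 10.29 in NPD lines. Map2k1 fell as it rose, with r = -0.76 (permutation p = 0.00863, adjusted over the 7 members 0.0604) and a Spearman's rho of -0.67 (permutation p = 0.0385, adjusted 0.269). Within the diets r was -0.71. Without LPD lines 4 and 20, where the feedback mean was highest, r over all lines was -0.37 (exact permutation p = 0.354). Leaving out the highest values narrows the range, so the weaker r cannot show whether the relation rests on those lines. For the other 6 members r lay between -0.41 and 0.29, with adjusted permutation p of at least 0.718. Egr1, 1 of the 14 feedback genes, ranged from 118 to 16051 over the 10 lines, and its weight in their mean was not tested.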
